A study of Mus musculus with 2 samples.

Results

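The cytosolic ribosomal protein genes were examined in mouse bone marrow multipotent progenitors. These genes encode the proteins of the 40S and 60S subunits. They were chosen by symbol: Rpl or Rps followed by a digit, Rplp0, Rplp1, Rplp2 and Rpsa, without symbols ending in -ps and a number, the Rps6k kinases and Rps27rt. This gave 86 of the 27998 genes in the matrix: 43 genes of the large subunit, 3 of its stalk, 31 of the small subunit, 8 paralogs and Rps19bp1, which matches by its name and is no subunit. The study compared wild-type C57BL/6 mice with Spp1-/- mice on the C57BL/6 background, which lack the gene for the secreted protein osteopontin. In both, the progenitors were sorted as lineage-negative Sca-1+, c-kit+ and CD34+ cells with a Flt3 gate at 20 h after an intraperitoneal injection of thioglycollate, an irritant that causes sterile peritonitis. Each genotype was 1 single-cell library made with 10X 3-prime chemistry, which counts molecules by unique molecular identifiers (UMIs). How many animals went into a library is not stated in the labels. A barcode suffix tells the libraries apart in the matrix. Since no label ties a suffix to a genotype, they are called library 1 and library 2, and no difference is given a direction between genotypes. With 1 library a group there is no replicate and no test. Intervals cover counting error only.

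A ribosome holds one copy of most of these proteins, and their genes are transcribed at high and similar levels in growing cells. Many of their messenger RNAs begin with a terminal oligopyrimidine (TOP) tract, a C followed by a run of pyrimidines, through which mTOR and LARP1 set how well they are translated. In blood formation they are known from Diamond-Blackfan anemia, in which a mutation in one ribosomal protein gene, often RPS19, impairs red cell production. A 3-prime UMI tags a messenger RNA once whatever its length, so levels are given as CPM, a gene's count as a share of all UMIs of the library on the 1000000 scale, and were not divided by length.

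After removing barcodes with under 500 genes or at least 10% mitochondrial UMIs, 3253 cells remained in library 1 and 4570 in library 2, with a median of 2830 and 3836 UMIs per cell. Of the sort markers, Cd34 was at 413 and 457 CPM, Ly6a (Sca-1) at 311 and 294, Flt3 at 122 and 141 and Kit at 36.1 and 36.6. Cd3e, a T cell gene, had 0 UMIs in both libraries (3 UMIs, the limit a count of 0 allows, are 0.296 and 0.16 CPM). The MHC class II genes, a dendritic cell list, were higher in library 1: all 4 were detected, with a summed 791 CPM in library 1 and 231 CPM in library 2. An erythroid list, nearly all Hbb-bt, summed to 101 and 48.2 CPM, a neutrophil list led by S100a8 to 17.8 and 35.6 CPM and a macrophage list led by C1qc to 11.5 and 6.88 CPM. The T and NK cell list was nearly all Nkg7 (300 and 320 CPM in sum) and the B cell list mostly Cd79b (64.4 and 71.0 CPM). Spp1 itself had 33 UMIs in library 1 and 1 UMI in library 2, and no library was assigned a genotype from these values. The libraries shared 32 barcode sequences. Leaving those cells out gave the same family share to 3 digits in library 1 (38.6%) and library 2 (34.7%).

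The start of the gene is shown first for members to which the library comparison and the cell-to-cell comparison return. Of the 86 members, 65 had at least 1 entry in the RefSeq promoter table (GRCm38.p6). Each line is read 5′ to 3′ on the gene's strand and holds 12 bases before and 18 bases from the annotated transcription start. Capitals mark a pyrimidine tract that begins exactly at the start with C and holds at least 4 more C or T.
Rps6: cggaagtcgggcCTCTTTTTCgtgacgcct
Rpl15: ggagaaagccttCTTCCTTTCCTCTggcgg
Rpl35: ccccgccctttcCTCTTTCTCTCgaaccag
Rps28: accgcgtgcggtctcgcgagagcgaaagtg
Rps2: cagtcgagatctcgcgcttcttggagcact
Rpl37a: cgctcgccggtctaaaaccgcgcatgcgca
Rpl39: aagctccgcctctagcgacttcttctaatc
Rpl22l1: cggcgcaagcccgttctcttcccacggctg
The windows lie at chr4:86857350-86857379 on the minus strand for Rps6, chr14:18270969-18270998 (minus) for Rpl15, chr2:39005114-39005143 (minus) for Rpl35 and chr17:33824545-33824574 (minus) for Rps28. That of Rps2 lies at chr17:24720051-24720080 (plus). Those of Rpl37a, Rpl39 and Rpl22l1 lie at chr1:72711248-72711277 (plus), chrX:37085205-37085234 (minus) and chr3:28805496-28805525 (plus). Each spans the promoter edge and the start of the annotated 5′ untranslated region.

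The tract runs over 9 bases in Rps6, 13 in Rpl15 and 11 in Rpl35. These are the 3 members whose level differed most upward between the libraries. The other 5 windows hold no such tract at the annotated start. Neither do those of Rpl13, Rpl10, Rpl27a and Rpl19, which like Rps2 were higher in library 2, so members that were higher were found with and without the tract. No match says only that the tract is not at that base. Over the subunit genes, 13 of 67 annotated promoters (19.4%) began with the tract, against 823 of 32851 of all promoters in the table (2.51%). Allowing the tract to begin within 5 bases of the annotated start, on the same strand, gave 43.3% and 18.3%. The 13 subunit genes with the tract at the start had a median log2 library ratio of -0.30 and a range from -0.64 to 2.38. The 44 subunit genes without it had a median of -0.14 and a range from -1.28 to 0.71. The groups overlapped between -0.64 and 0.71.

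The family took over 34% of all UMIs counted, and its share was lower in library 2. The median cell held 38.6% ribosomal protein UMIs in library 1 (quartiles 35.6% and 41.6%, range 20.0% to 51.6%). In library 2 the median was 34.7% (quartiles 32.1% and 37.4%, range 12.7% to 49.3%). The ranges of the cells overlapped widely, and the median of library 2 lay below the lower quartile of library 1. The pooled shares were 38.3% (exact binomial interval 38.3% to 38.4%) and 34.3% (34.2% to 34.3%). The SD over cells was 4.32 percentage points in library 1 and 3.91 in library 2, where sampling of UMIs alone gives 0.975 and 0.832. Small and large subunit genes kept nearly the same proportion: the summed small subunit UMIs were 0.896 of the large subunit UMIs in library 1 and 0.905 in library 2. The transcripts of the G2 and mitosis list differed between the libraries as well: summed over the list they reached 1836 CPM in the first and 3049 CPM in the second, and 15 of 24 were past 1.5-fold from the median of all genes. Its part and that of the MHC class II genes in the library difference was not tested. Without cells holding 3 or more UMIs of a list of another cell type the shares were 38.8% and 35.0%. This left out 696 of 3253 and 1260 of 4570 cells. The UMIs were counted without thinning, so deep cells reached the limit more readily.

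Levels spread over 3 orders of magnitude, but most members lay close together: 74 of the 86 were above 1000 CPM in both libraries. The plot of levels by member shows most of those that were measured.

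**Figure D1:**
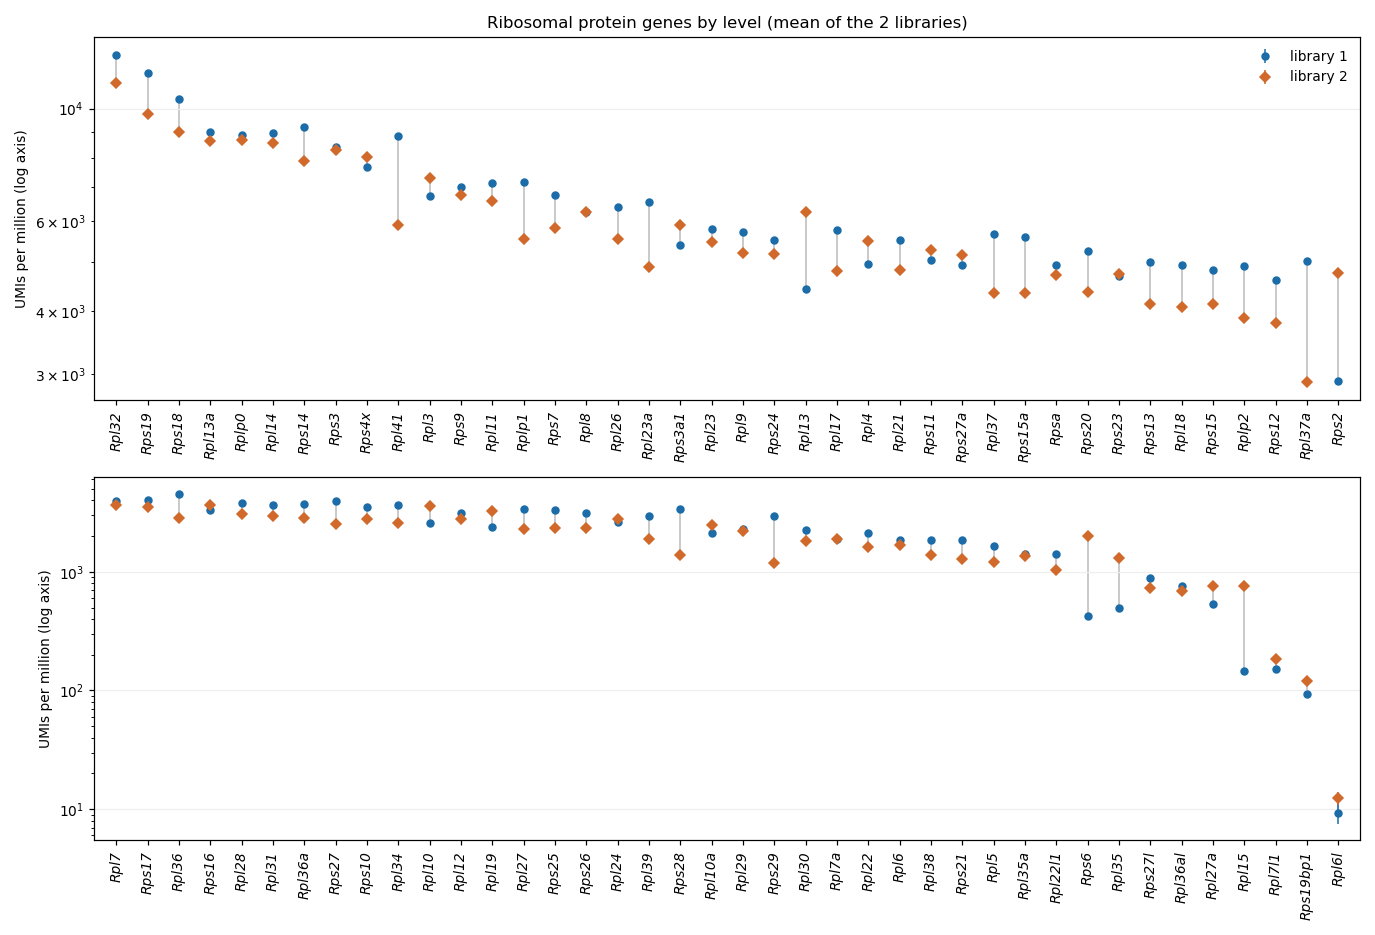
Level of measured ribosomal protein genes in CPM (log axis), ordered by the mean of both libraries, circles for library 1 and diamonds for library 2, bars for the 95% Poisson interval. Most members form a gentle slope, while Rps6, Rpl35 and Rpl15 lie far below it in library 1 and closer to it in library 2.

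Rpl32, a large subunit protein, was the most abundant, at 12759 CPM in library 1 and 11242 CPM in library 2. Rps19, the small subunit protein most often mutated in Diamond-Blackfan anemia, followed at 11770 and 9766 CPM. Rps18 was at 10448 and 8997 CPM and Rps14 at 9198 and 7881; both are small subunit proteins. Of the large subunit, Rpl13a was at 8983 and 8655 CPM and Rpl14 at 8942 and 8549. Rplp0, the base of the stalk that recruits elongation factors, was at 8888 and 8675 CPM. All of these were lower in library 2, by a log2 ratio of -0.04 for Rplp0 to -0.27 for Rps19. The 10 most abundant members together held 26.3% and 26.1% of the family's UMIs. The other stalk proteins, Rplp1 (7184 and 5543 CPM) and Rplp2 (4894 and 3864 CPM), were lower in library 2 by -0.37 and -0.34.

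The paralogs were less abundant than most subunit genes. Rpl22l1, the paralog of Rpl22, stood at 1413 CPM in library 1 and 1041 CPM in library 2, against 2111 and 1610 CPM for Rpl22. Rps27l, a p53-responsive paralog of Rps27, stood at 878 and 737 CPM, against 3912 and 2514 CPM for Rps27. Rpl36al was at 765 and 688 CPM, Rpl7l1 at 151 and 183 CPM and Rpl6l, which the annotation calls a processed pseudogene, at 9.29 and 12.3 CPM. Rps19bp1, a binding partner of Rps19, was at 93.2 and 120 CPM. Tissue-restricted paralogs were all but silent: Rpl39l, known from testis, had 8 and 17 UMIs and Rpl3l, known from striated muscle, had 2 and 7. Rpl10l, also known from testis, had 0 UMIs in both, with the same limit of 3 UMIs. These 3 were under the minimum of 50 UMIs and have no ratio.

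Across the 83 measured members the median log2 ratio of library 2 over library 1 was -0.20, with quartiles at -0.37 and 0.0022. The median over all 10099 genes with at least 50 UMIs was 0.11. Of the members, 62 were below 0, whereas 31.8% of all genes were. The median was -0.22 over the 31 small subunit genes and -0.18 over the 43 large subunit genes. Ratios are relative to total UMIs: scaling by trimmed means (TMM) moved the family median to -0.29 and the median of all genes to 0.02, and their distance of -0.31 did not change. Past 1.5-fold from the median of all genes lay 15 of the 83 members (18.1%), against 6.82% of all genes. Of these, 11 were lower (3.82% of all genes).

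By the distance used to single out members, 0.5 or more on the log2 scale from the family median, 13 of 83 broke away, 3 lower and 10 higher. Among all genes 9.74% lay that far from their own median. Just outside the limit were Rpl36 (-0.46 from the family median), Rpl39 (-0.45), Rps27 (-0.44) and Rpl7l1 (0.47).

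Rps6, the small subunit protein phosphorylated by S6 kinase, stood at 426 CPM in library 1 (95% Poisson interval 413 to 439) and at 1987 CPM in library 2, a log2 ratio of 2.22 (2.18 to 2.27). Rpl15, a large subunit protein, stood at 146 and 762 CPM, a log2 ratio of 2.38 (2.30 to 2.46). Rpl35, which sits at the mouth of the peptide exit tunnel, stood at 493 and 1317 CPM, a log2 ratio of 1.42 (1.37 to 1.46). In library 1 these were the 3 lowest subunit genes, and in library 2 Rps6 lay within the range of the others while Rpl15 and Rpl35 stayed among its lowest. Rpl27a, low in both (535 and 754 CPM), had a ratio of 0.49. Further members were higher in library 2 from a middle level. Rps2 stood at 2904 and 4739 CPM (0.71), Rpl13 at 4405 and 6268 CPM (0.51) and Rpl10, a protein that joins the large subunit late, at 2554 and 3603 CPM (0.50). Rpl19 stood at 2382 and 3282 CPM (0.46). Rpl6l (0.41, interval 0.06 to 0.77) and Rps19bp1 (0.37) completed the higher set at low counts.

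On the lower side, Rps29 stood at 2933 CPM in library 1 and 1181 CPM in library 2, a log2 ratio of -1.31 (-1.34 to -1.29). Rps28 stood at 3403 and 1397 CPM, a ratio of -1.28 (-1.31 to -1.26). Rpl37a stood at 5004 and 2899 CPM, a ratio of -0.79 (-0.81 to -0.77). Rps28 and Rps29 encode small proteins of the small subunit and Rpl37a a small zinc-binding protein of the large subunit. All 13 members kept their direction in cells with 3000 to 6000 UMIs, where 12 of them were again past the limit; Rps19bp1 (0.28) was not, and Rpl39 was added.

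Both libraries were counted on the same annotation, in which many members have near-identical copies. Over the last 300 bases of the transcript, 58 of 82 measured members shared a 50-base stretch with another gene; Rpl6l has no transcript in the annotation used. The share of such stretches was 83.3% for Rps6, 96.0% for Rpl35 and 100% for Rpl10, and 0% for Rpl15 and Rpl27a, so members with and without copies were among those that broke away. The median log2 ratio was -0.13 over the 24 measured members with none (3 of them away) and -0.21 over the 58 with any (9 of them away). The part of shared sequence in these ratios was not tested.

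The library ratio was ordered by coding length. The 3 members with under 200 coding bases had a median log2 ratio of -0.65, and the 7 with 200 to 299 bases of -0.53. The median was -0.35 for the 18 members with 300 to 399 bases, -0.20 for the 31 with 400 to 599, 0.06 for the 15 with 600 to 799 and -0.05 for the 8 above that. Spearman's rho was 0.68 over 82 members and 0.71 in cells with 3000 to 6000 UMIs, a description over genes that share both libraries and are not independent. Among other genes the class medians also stepped up, by less: they were -0.20, -0.08, 0.02, 0.10, 0.13 and 0.14, over 35 genes in the shortest class and 5394 in the longest. Over all lengths, rho of the other genes was 0.04 (n = 7341), and -0.01 in cells with 3000 to 6000 UMIs. Among genes with under 600 bases, rho was 0.62 for 59 members and 0.28 for 1159 other genes. The members lay below the other genes of their own length class in all 6 classes.

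**Figure D2:**
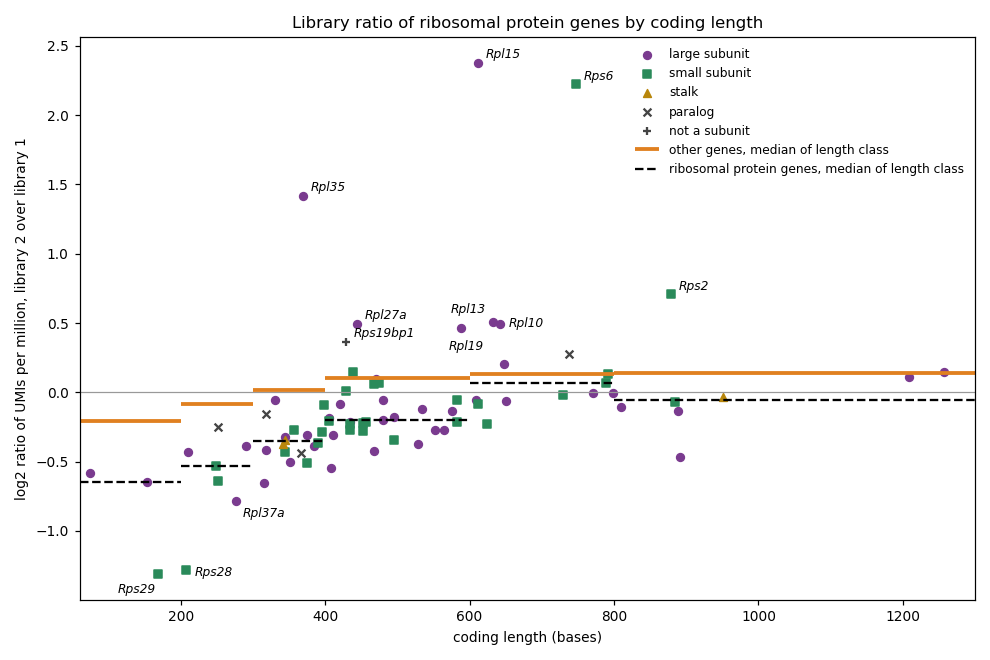
Log2 ratio of CPM, library 2 over library 1, against coding length in bases, 1 point per ribosomal protein gene with the shape giving its place in the ribosome; dashed black lines are the members' medians and orange lines the other genes' medians per length class. The members' medians step up from -0.65 to 0.06 with length, and Rpl15, Rps6 and Rpl35 lie far above and Rps28 and Rps29 far below their classes.

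Short members held most of the difference in share between the libraries. The 28 measured members with under 400 coding bases had a median ratio of -0.40, and 27 of them were below 0; Rpl35 was the exception. They took 10.1% of UMIs in library 1 and 7.42% in library 2. The 54 longer members had a median of -0.07 and took 28.3% and 26.8%. Rpl41, the smallest protein of the ribosome, stood at 8826 CPM in library 1 and 5890 CPM in library 2 (-0.58). Rpl36 stood at 4503 and 2854 CPM (-0.66). At the other end, Rpl3, which reaches toward the catalytic centre, stood at 6738 and 7290 CPM (0.11) and Rpl4 at 4947 and 5489 CPM (0.15). Library 2 had the deeper cells and the smaller share of UMIs in short members. A difference of library preparation or sequencing cannot be told apart from one of genotype.

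Ribosomal proteins outside the naming rule and other parts of the translation machinery were read from fixed lists. Fau, whose product is split into a ubiquitin-like protein and a small subunit protein, stood at 3467 and 2812 CPM (-0.30). Gnb2l1 (Rack1), the scaffold on the small subunit, stood at 2456 and 2557 CPM (0.06). Over 21 translation factors the median log2 ratio was 0.12 and 1 was past 1.5-fold, Tpt1 (0.89), which is itself a TOP messenger RNA. Eef1a1, the factor that brings aminoacyl-tRNA, was level at 5048 and 5007 CPM. Over 25 ribosome biogenesis genes the median was 0.13 with none past the limit; Ncl, the nucleolin gene, was at 1306 and 1534 CPM, Nop10 at 908 and 787 CPM. The 76 measured mitochondrial ribosomal protein genes had a median of 0.12 with 5 past the limit. Among 14 regulators of TOP translation and ribosome synthesis the median was 0.17 with 1 past the limit, Mycn on few counts (4.15 and 7.31 CPM); Larp1 was at 59.0 and 51.8 CPM, Myc at 81.7 and 86.6 and Trp53 at 263 and 312. These lists lay near the median of all genes, above that of the ribosomal protein genes.

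The family share was lower in cells with more UMIs, and the libraries lay further apart in deep cells. In library 2 the median share was 38.0% in 554 cells with under 2000 UMIs, 36.8% at 2000 up to 3000, 34.3% at 3000 up to 4000, 33.5% in both classes from 4000 to under 9000 (split at 6000), and 32.4% in 94 cells with 9000 or more. In library 1 it was 40.8% in 809 cells with under 2000 UMIs, 38.6%, 37.3% and 37.4% in the next classes and 38.9% in 138 cells with 6000 to under 9000, with the lowest value in the middle. Spearman's rho over cells was -0.24 in library 1 and -0.37 in library 2, where depth is also part of the share's denominator. Library 2 minus library 1 was below 0 in each depth class, from -1.76 percentage points (2000 up to 3000 UMIs) to -6.44, where library 1 had 17 cells. The order by depth in library 1 depended on barcodes with few genes: with at least 1000 genes per barcode the top class lay 1.39 points above the bottom class, where all kept cells gave -1.95. In library 2 the difference was -5.65 with all kept cells and -3.72 with that filter.

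**Figure D3:**
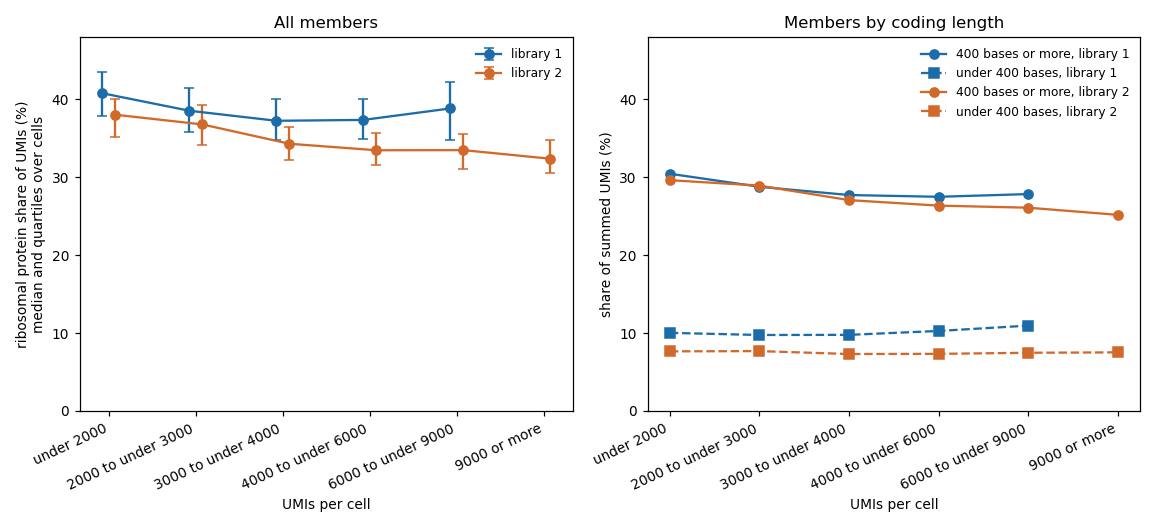
Left, ribosomal protein share of UMIs per cell (median and quartiles over cells) by UMIs per cell; right, the share of summed UMIs held by members with under 400 and with at least 400 coding bases; classes with at least 50 cells. The short members keep their gap between the libraries at every depth, while the share of the longer members is lower in deeper cells of both libraries.

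The short and long members behaved differently. Members with under 400 coding bases took 10.0% of UMIs below 2000 UMIs per cell and 11.0% at 6000 to under 9000 in library 1, and 7.65% and 7.47% in library 2. The longer members took 30.5% and 27.9% in library 1 and 29.6% and 26.1% in library 2. The gap between libraries was thus present in the short members at every depth. The longer members also took a smaller share in library 2, except at 2000 up to 3000 UMIs (28.8% and 28.9%). The lower share of deeper cells was in the long members.

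To compare states of the cell at one number of counted UMIs, each cell was thinned to 2000 UMIs. This left 2444 cells of library 1 and 4016 of library 2 and left out 809 and 554 shallower cells. Classes of cells could still differ in their depth before thinning. The family share was then taken over UMIs outside each marker list. Unthinned medians were 38.6% and 34.7%, thinned medians 37.9% and 34.3%. Library 2 was lower in 34 of 34 classes with at least 50 cells in each library, with differences from -2.23 to -4.03 points. The same cells were divided anew for each list, so these classes are not separate observations.

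Cells with more DNA replication transcripts held a smaller ribosomal protein share. With no UMI of the S-phase list, led by Dut and Pcna, the median was 42.0% in 55 cells of library 1 and 38.9% in 70 cells of library 2. It was 40.4%, 38.8% and 37.3% with 1 to 2, 3 to 5 and 6 to 9 S-phase UMIs in library 1, and 36.0% with 10 or more (360 cells). In library 2 the same classes stood at 36.6%, 35.2%, 34.0% and 33.0% (899 cells). The steps went one way in both libraries, and the ends differed by -5.97 and -5.88 points. Median depth before thinning differed as well: 2530 and 2598 UMIs without an S-phase UMI, 3198.5 and 4095 with 10 or more. In library 1 depth was highest in the class with 3 to 5 (3381.5). For the G2 and mitosis list, led by Top2a and Birc5, the share was 40.0% without a list UMI and 36.7% with 10 or more in library 1, a difference of -3.31, and 36.8% and 33.8% in library 2, a difference of -2.91. The lowest class was 6 to 9 list UMIs in both (36.2% and 33.0%), and the share of the highest class lay slightly above it. Median depth before thinning was 2631.5 and 2882 UMIs without a list UMI, and 3924.5 and 5225 with 10 or more.

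Granule genes of the neutrophil and monocyte path, of which Prtn3 holds 73.6% of the UMIs, went with a smaller share. The median was 38.4% in 401 cells without a granule UMI and 33.8% in 65 cells with 10 or more in library 1, a difference of -4.56. It was 35.2% and 31.6% in library 2, a difference of -3.57. These granule-rich cells were also deep: before thinning, their median depth was 5539 UMIs in library 1 and 7598 in library 2, against 2990 and 3538 without a granule UMI. Their median count of cycle-list UMIs was 11 and 14, against 9 and 11. In cells with under 10 cycle-list UMIs the granule difference was -2.21 and -1.29, taken to the highest class with at least 50 such cells. In library 1 that was a lower class than 10 or more granule UMIs, so the values do not compare the same classes.

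Early lymphoid genes, led by Dntt, went the other way. The median was 37.3% without a list UMI and 40.6% in 60 cells with 10 or more in library 1, a difference of 3.33, and 33.6% and 36.6% (140 cells) in library 2, a difference of 3.0. Lymphoid-rich cells were shallower, with a median depth of 2455 and 3305 UMIs against 3435 and 4411. In cells with under 10 cycle-list UMIs the difference was 1.26 in library 1 and 2.64 in library 2. It was again taken to the highest class with at least 50 such cells, which could be a lower class. Stem cell genes gave 1.09 and 1.14, and 3.51 and 2.92 when cells were thinned to 1000 UMIs. Ifitm1 holds 91.4% of that list. Without it no class with 10 or more UMIs was filled, and the difference was 1.02 in library 1 (1 to 2 UMIs against none) and 1.33 in library 2 (3 to 5 UMIs in 87 cells against none). In library 2 the stem difference turned to -0.74 among cells with under 10 cycle-list UMIs (258 cells against 54). Immediate early genes such as Fos and Ier2 gave 1.26 and 1.59, and 3.07 and 2.41 with cells thinned to 1000 UMIs. The monocyte and dendritic list, led by Irf8, gave -1.24 and -0.53, and the megakaryocyte and erythroid list, which is 92.5% Car2, gave -0.14 and 0.90; both are small beside the quartiles. Cells rich in ribosome biogenesis transcripts (10 or more UMIs) had a smaller ribosomal protein share than cells with 3 to 5. The difference was -3.67 points in library 1 and -2.24 in library 2. The rich cells were deeper before thinning, with a median of 3326.5 and 4295.5 UMIs against 2963 and 3202. The part of depth in this difference was not tested. The part of depth and of the cell cycle in the lineage differences was not tested beyond these values. Nor was the part of depth in the cycle-list differences.

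**Figure D4:**
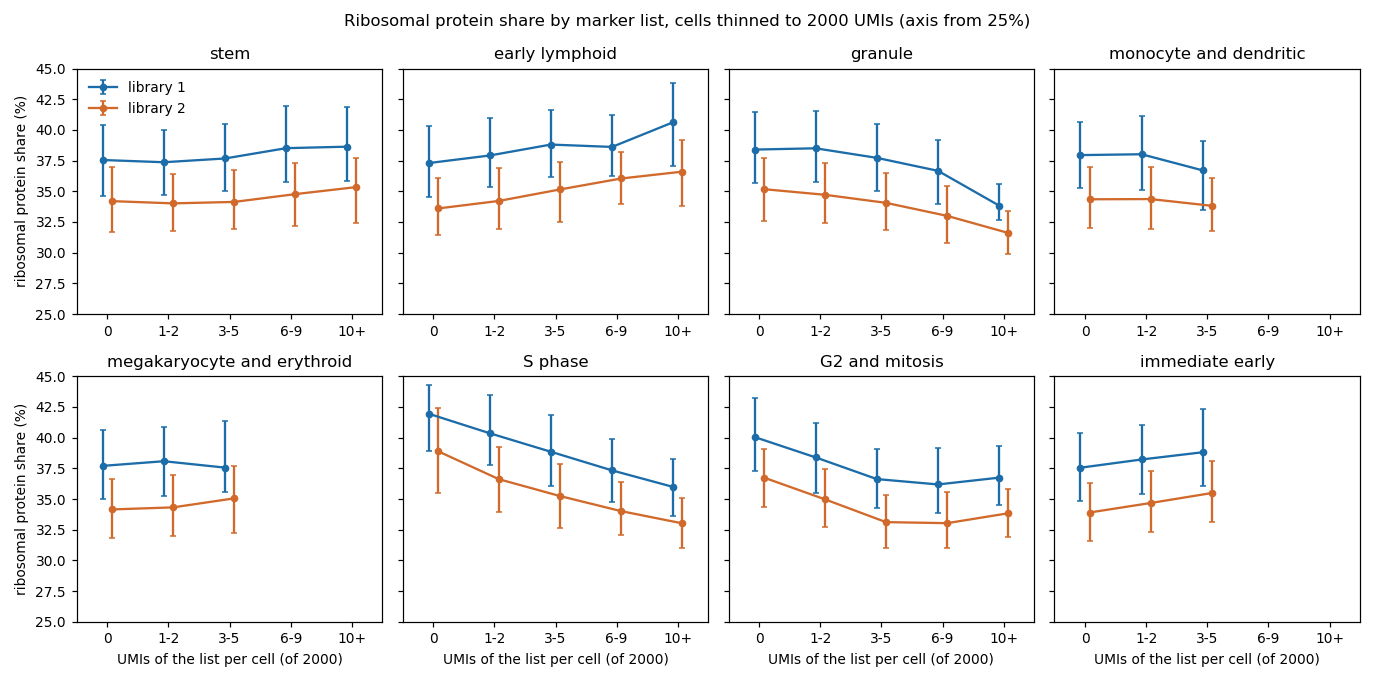
Ribosomal protein share (median and quartiles over cells, axis from 25%) by the number of UMIs of each marker list, in cells thinned to 2000 UMIs, library 1 and library 2; classes with under 50 cells are left out. In both libraries the share steps down with S-phase UMIs, ends lower with 10 or more granule UMIs and ends higher with 10 or more early lymphoid UMIs, and library 2 lies below library 1 in every class.

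Few members differed by much with any list. For each list, CPM in cells with 3 or more list UMIs was set against cells with none, and a member counted as past when it differed 1.2-fold the same way in both libraries. No member of 82 was past for the stem list (17.0% of all genes with at least 100 UMIs in each library were), for early lymphoid (13.0%), granule (9.99%) or monocyte and dendritic (16.0%) genes. For the S-phase list 6 of 82 were past (31.5% of all genes) and for G2 and mitosis 5 (21.2%). For megakaryocyte and erythroid genes 1 was past (15.1%) and for immediate early genes 1 (10.8%). The shares of all genes were not matched to the members in level. Most members had far more than 100 UMIs, and ratios of few UMIs scatter more. Against S phase, 63 of 82 members were below 0 in both libraries, as were 22.6% of all genes, and the members' median was -0.10 and -0.14 where that of all genes was 0.14 and 0.11. The direction was less uniform with the lineage lists: with early lymphoid UMIs 49 members were above and 15 below 0 in both libraries, and with megakaryocyte and erythroid UMIs 33 and 27. Against G2 and mitosis, 65 of 82 members were below 0 in both (29.4% of all genes), with medians of -0.10 and -0.11. 

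Which members were past for the cycle lists depended on the random thinning and the filter. The S-phase comparison rests on 55 and 70 cells without a list UMI, that of G2 and mitosis on 626 and 835. Most cells, 2083 and 3508, had 3 or more S-phase UMIs, so that group is not limited to cells in S phase. With another draw 5 were past for S phase, 3 of them among the first 6: Rpl3, Rpl39 and Rps27l. Rpl39 stood at 2868 CPM with 3 or more S-phase UMIs and 3918 CPM without any in library 1. In library 2 it stood at 1847 and 2564 CPM. Rpl3 stood at 6611 and 8318 CPM in library 1 and 7347 and 8907 CPM in library 2. For G2 and mitosis, 4 of the 5 members recurred with another draw: Rpl17, Rps7, Rps15a and Rps27. Rpl17 stood at 5223 CPM in cells with mitotic UMIs and 6509 CPM without in library 1, and at 4474 and 5658 CPM in library 2. Rps7 stood at 6171 and 7523 CPM, and at 5486 and 6764 CPM. With at least 1000 genes per barcode, 1 member was past for G2 and mitosis, Rps6, and none of these 5.

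Within the family, a few members changed their share of ribosomal protein UMIs most. Rps27l was among the 3 largest shifts with 5 of the 8 lists. Its share of family UMIs was higher with 3 or more S-phase UMIs than with none, by 0.57 and 0.74 on the log2 scale. It was higher with mitotic UMIs by 0.22 and 0.30, and with granule UMIs by 0.17 and 0.32. It was lower with megakaryocyte and erythroid UMIs by -0.38 and -0.44 and with immediate early UMIs by -0.25 and -0.40. In CPM it stood at 701 against 907 for the megakaryocyte and erythroid list in library 1 and at 580 against 769 in library 2. That list's single member past 1.2-fold was Rps27l; with another draw it was Rps19bp1.

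Rps24, a small subunit protein also mutated in Diamond-Blackfan anemia, differed with the lineage lists. It stood at 6187 CPM in early lymphoid cells against 5238 CPM without lymphoid UMIs in library 1, a log2 ratio of 0.24 (0.20 to 0.28), and at 5832 against 4930 CPM in library 2, a ratio of 0.24 (0.21 to 0.28). With megakaryocyte and erythroid UMIs it stood at 4742 against 5757 CPM in library 1 (-0.28) and at 4938 against 5377 CPM in library 2 (-0.12). With stem UMIs it was lower by -0.20 and -0.19. Rpl5, which binds MDM2 when ribosome assembly is disturbed, went opposite to Rps24 with the full lists. Its log2 ratio was -0.11 and -0.18 with early lymphoid UMIs and 0.13 and 0.23 with stem UMIs. Rpl30 was higher with stem UMIs by 0.18 and 0.14. Without Ifitm1 in the stem list, 42 and 89 cells had 3 or more UMIs. Rpl5 was then at -0.02 (-0.27 to 0.22) and 0.17 (-0.02 to 0.36), so its rise was not seen in library 1. Rpl30 was at 0.13 and 0.08, with both intervals over 0. Rps24 was at -0.12 (-0.26 to 0.02) and -0.14 (-0.24 to -0.04). Rpl22l1 was lower with monocyte and dendritic UMIs by -0.62 and -0.19 and with megakaryocyte and erythroid UMIs by -0.29 and -0.07. Rpl39 was lower with granule UMIs by -0.23 and -0.21. Rpl41 took a larger part of the family in cells with mitotic UMIs, by 0.21 and 0.30. Rps19bp1 and Rpl7l1 also ranked among the largest shifts, on few counts: against the S-phase list, Rpl7l1 had 9 and 24 UMIs in cells without list UMIs.

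Over thinned cells most members varied little beyond sampling. Of 77 members with a mean of at least 1 UMI per cell, the variance-to-mean ratio had a median of 1.22 in library 1 and 1.16 in library 2, where Poisson sampling gives 1 (lowest value 0.995). Rpl39 (2.64 and 1.87) and Rpl22l1 (2.40 and 2.14) stood above all others. Rpl39 ranged from 0 to 23 UMIs in a cell of library 1, with a median of 6, and from 0 to 20 in library 2, with a median of 3. Pearson's r of a member with the rest of the family was above 0 for 74 of 77 in each library. Rpl32 had the highest (0.56 and 0.55), while Rps2 (-0.04 and 0.02), Rpl5 (-0.06 and -0.03) and Rpl36al (-0.00 and -0.03) were near 0. These are descriptions over 2444 and 4016 cells that share a library and a fixed total of 2000 UMIs.

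Rpl39 and Rpl22l1 varied together, and with mitochondrially encoded transcripts. This pattern was chosen after their variance had been seen. Rpl39 lines the exit tunnel for the new peptide; Rpl22l1 is the paralog whose messenger RNA Rpl22 represses. Their Pearson's r over cells was 0.55 in library 1 and 0.42 in library 2. By the mean of both libraries it was the highest value of each among 1314 genes with a mean of at least 0.2 UMIs. In library 2 alone, mt-Cytb lay higher for Rpl22l1 (0.44). Next for Rpl39 came mt-Cytb (0.48 and 0.37), Rps15a (0.45 and 0.35), Rpl23a (0.44 and 0.31) and mt-Nd1 (0.45 and 0.27). For Rpl22l1 these were mt-Cytb (0.50 and 0.44), mt-Nd1 (0.49 and 0.38), Rps15a (0.39 and 0.31) and Rpl23a (0.39 and 0.30). Ptma lay at the other end for both (-0.31 and -0.18 with Rpl39). Spearman's rho with UMIs per cell before thinning was 0.05 and -0.01 for Rpl39 and 0.10 and 0.06 for Rpl22l1. In cells with 4000 to under 6000 UMIs, r with summed mt- UMIs was 0.54 and 0.36 for Rpl39 and 0.51 and 0.49 for Rpl22l1.

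With 0 to 4 mt- UMIs of 2000, Rpl22l1 stood at 617 CPM in library 1 (557 to 681) and 474 CPM in library 2. With 20 or more it stood at 2649 and 2063 CPM. Rpl39 went from 1749 and 1261 CPM to 4696 and 3007 CPM. Rps15a went from 4532 and 3780 CPM to 7104 and 5452 CPM, and Rpl22 from 1833 and 1434 CPM to 2573 and 1890 CPM. Rpl5 (1706 and 1258 CPM, then 1646 and 1228 CPM) and Rps2 (3005 and 4807 CPM, then 2772 and 4590 CPM) did not follow. The log2 ratio of the ends was 2.10 and 2.12 for Rpl22l1 and 1.43 and 1.25 for Rpl39, and -0.27 and -0.24 for Rpl3 at the other end of the family. Of 79 members with at least 1000 thinned UMIs in each library, 60 were above 0 in both, against 26.1% of all 674 such genes. The family share itself was 35.7% and 32.8% with 0 to 4 mt- UMIs and 40.7% and 36.4% with 20 or more, over UMIs outside mt- genes. All kept cells had under 10% mt- UMIs, and the mt- share of the library was 0.589% and 0.602%. The part of RNA quality in this pattern was not tested.

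**Figure D5:**
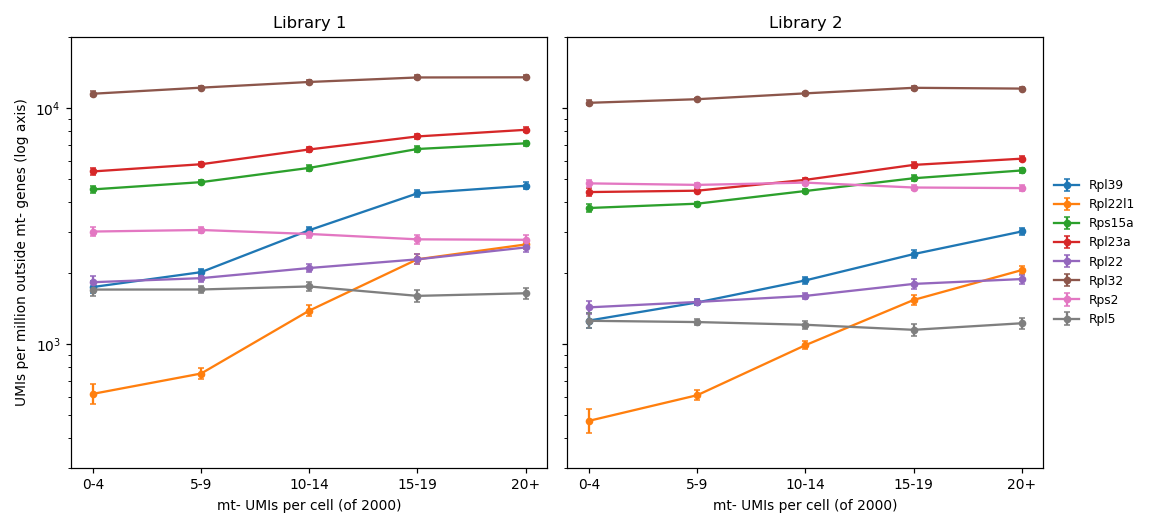
Level of 8 ribosomal protein genes in CPM outside mt- genes (log axis, 95% Poisson bars) by the number of mt- UMIs per cell in cells thinned to 2000 UMIs, for library 1 and library 2. Rpl22l1 and Rpl39 climb from the lowest to the highest class in both libraries, Rps15a, Rpl23a, Rpl22 and Rpl32 climb less, and Rps2 and Rpl5 stay nearly flat.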

How the data were processed

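The authors deposited 1 matrix of raw UMI counts per gene and cell barcode for both libraries, made with Cell Ranger 1.1 on mm10 per the submitters' processing notes. The deposited counts carry no replicate. Barcodes with at least 500 genes and under 10% mt- UMIs were kept, doublets were not removed, and every row names a gene. UMIs were summed per barcode suffix. CPM carry exact Poisson intervals, ratios exact conditional ones, at 95%. Cells were thinned without replacement to 2000 UMIs. Coding lengths and 50-base stretches come from GENCODE transcripts, promoters from RefSeq. The scripts were tested on simulated data. Python 3.11.15, numpy 2.4.6, scipy 1.17.1 and edgeR 4.0.16 (TMM factors only) were used.

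The members and lists were chosen with earlier results of these data known. Named were the 10 members with the most CPM, every member at least 0.5 (log2) from the family median, the paralogs and Rps19bp1, the 3 largest within-family shifts per list, Fau and Gnb2l1, and the leading genes of other lists. Members named beyond that, among them Rpl4, Rpl36 and the partners of Rpl39 and Rpl22l1, were chosen after their values were seen. A few members and marker genes that these rules name are not reported here. Alternatives covered the barcode filter, denominators, scaling, minimum counts, depth, thinning, shared sequence and coding length.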

Additional observations from a re-analysis of the deposited data

Results flagged for a closer look

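The family share went opposite ways in the libraries with UMIs of the megakaryocyte and erythroid list: the class with 3 to 5 list UMIs differed from that with none by -0.14 percentage points in library 1 and by 0.90 in library 2. With the MHC class II list of dendritic cells, the same difference was -1.24 in library 1 and 0.70 in library 2. These differences between libraries were not tested, and with 1 library each cannot be. In library 1 another random draw of the thinning gave 0.68 for the megakaryocyte and erythroid list.

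Rps27rt, which the naming rule leaves out, had 8149 UMIs in library 1 and 4611 in library 2. At 805 and 246 CPM it was as abundant as the paralog Rps27l in library 1, and its log2 ratio of -1.71 was lower than that of any measured member. The other 16 copies left out by name summed to 423 and 390 UMIs.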

How the results depend on the processing

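Of 152 values recomputed under an alternative, 110 moved by less than their spread, 35 by more, and 7 changed sign; the cause was not tested. The family share in library 1 and library 2 was 37.5% and 34.1% with at least 1000 genes per barcode, 38.8% and 34.9% without mt- UMIs, and 38.8% and 35.0% without cells holding another cell type's UMIs. It was 38.3% and 34.3% pooled. By construction it was smaller over members without a shared 50-base stretch (12.1% and 11.0%) or with at least 400 coding bases (28.5% and 27.1%), where the median log2 ratio was -0.067. A distance of 1 left 5 members away. With at least 1000 genes the depth difference was 1.39 in library 1 (reversed) and -3.72 in library 2, and over long members -3.08 in library 1.

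With thinning to 1000 UMIs the differences were: stem 3.51 and 2.92, immediate early 3.07 and 2.41, monocyte and dendritic 0.0387 (reversed) and -1.70, megakaryocyte and erythroid 1.07 (reversed) and 1.68. The last was 0.68 in library 1 with another draw and 0.83 over long members, both reversed, and 0.20 in library 2 with at least 1000 genes. With under 10 cycle-list UMIs, added after seeing the data, stem was -0.74 in library 2 (reversed), early lymphoid 1.26 and monocyte and dendritic 0.55 (reversed) in library 1, and granule -2.21 and -1.29. Over long members in library 1, granule was -3.00, S phase -3.67 and G2 and mitosis -2.21. Each list difference set the lowest against the highest class with at least 50 cells under that setting, so the classes could change. Members past 1.2-fold numbered 1 for granule, 3 for monocyte and dendritic, 0 for megakaryocyte and erythroid and 6 for immediate early genes at 1000 UMIs, and 1 for G2 and mitosis and 0 for immediate early genes with at least 1000 genes. No paired analysis was possible because each group is 1 library and the matrix columns carry no replicate. No genotype, batch or animal can be separated from a library, and doublets were not removed.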
